A study of Mus musculus with 132 samples.

Results

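The 10 genes described here are the FGF ligand Fgf4, the receptor genes Fgfr1, Fgfr2 and Fgfr3, the ERK phosphatase genes Dusp4 and Dusp6, the Sprouty genes Spry2 and Spry4, and the ETS factor genes Etv4 and Etv5. They were taken by symbol from a count table of 32245 genes, and all 10 were present. The rule used gene symbols and no measured value. Each level is given as counts per 1000000 counts (CPM), computed without mitochondrial genes over single cells of mouse embryos.

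In the mouse blastocyst, FGF4 is made by cells of the inner cell mass (ICM) that become epiblast. It binds FGF receptors on neighbouring cells, which activate the RAS, RAF, MEK and ERK kinases in turn. ERK signalling supports the primitive endoderm and the growth of the trophectoderm (TE). Active ERK also induces its own brakes: DUSP4 and DUSP6 remove phosphate from ERK, and Sprouty proteins dampen signalling between receptor and RAS. ETV4 and ETV5 are transcription factors of the PEA3 family whose genes are widely read as targets of FGF signalling.

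The embryos came from matings of superovulated C57BL/6NCrl x DBA/2NHsd F1 females (C57BL/6 x DBA in the labels) with males of the same cross, and grew in KSOM medium after the 2-cell stage with either a mimic of the microRNA miR-381-3p or a scrambled control mimic. No genetic change was made, and both arms carried a mimic. The labels give doses of 5 or 10 µM without a dose for each cell, and the study's text ties the dose to the stage, so dose and stage cannot be told apart. Cells were read with Smart-seq2, a full-length protocol for polyadenylated RNA, in 4 groups: 30 cells of control and 24 cells of mimic embryos at the 8-cell stage (embryonic day 2.5), and 39 cells of control and 39 of mimic embryos at the 32-cell stage (embryonic day 3.5). They came from 3 to 5 embryos per group, but the labels do not tie a cell to its embryo. Each group was therefore treated as 1 sample, and no test between groups was possible.

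Total counts ranged from 544866 to 3461022 per cell, and 3 counts in a cell of median depth equalled 2.49 CPM. The 32-cell cells were split into an ICM-like cluster (25 control and 12 mimic cells) and a TE-like cluster (14 control and 27 mimic cells), without the 10 genes, other pathway genes or the lineage markers entering the clustering. Of the 8 ICM markers 7 were higher in the first cluster, and the second cluster had the higher level of all 9 TE markers. The ICM-like mimic class held 11 to 18 cells under the other ways of placing cells that were tried. All 39 control cells of the 32-cell stage had more counts of Y-linked genes than of Xist, and in all 39 mimic cells Xist was not below the Y-linked genes. At that stage the treatment cannot be told apart from a difference in sex between the embryos, and the Y-linked gene Uty stood among the 10 genes that led the ICM-like cluster. At the 8-cell stage both arms held both kinds of cell (7 of 30 control and 8 of 24 mimic cells with Y-linked counts above Xist). Within a stage, cells were placed in runs by the number in their title. A run ended where the treatment changed or a long stretch of numbers was missing, so 1 treatment per run is built in. At both stages some runs of opposite arms follow each other without a break in the numbers. The labels do not say whether runs mark batches, so runs were not taken as independent units. Values by run are given beside the results they touch. The 8 cumulus cell markers summed to at most 0.657 pooled CPM in any group.

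The mimic acts through a short seed, and the 3′ untranslated regions (UTRs) of the 10 genes were searched for its complement. The mature mouse sequence is printed 5′ to 3′ with the seed, bases 2 to 8, in capitals, as RefSeq gives it for GRCm38.p6 (chr12:109726870-109726891, plus strand).
miR-381-3p: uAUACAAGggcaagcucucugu

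Target sites were sought as CTTGTATA (8mer), CTTGTAT without the following A (7mer-m8) and TTGTATA without the preceding C (7mer-A1), on the transcript's own strand, in a single 3′ UTR per gene, the longest that GENCODE M21 gives on GRCm38. Of the 10 genes 3 held a site. Among 20775 genes of the table with a 3′ UTR, 3.11% held an 8mer and 21.6% held a site of any of these kinds. Each line shows 22 bases of the sense strand, with the matched letters in capitals.
Fgfr2 8mer: gcctccaCTTGTATAtatggat
Dusp6 7mer-m8, first: ttaaggcCTTGTATggctgttt
Dusp6 7mer-m8, second: tgtttggCTTGTATttgttttt
Spry2 7mer-A1: ctatatttTTGTATAtacgata

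The Fgfr2 site lay at base 1470 of a UTR of 2820 bases (chr7:130163855-130163862, minus strand). The Dusp6 sites began at bases 333 and 543 of 1190 (chr10:99266632-99266638 and chr10:99266842-99266848, plus strand). The Spry2 site began at base 430 of 856 (chr14:105892367-105892373, minus strand). No match was found for Fgf4, Fgfr1, Fgfr3, Dusp4, Spry4, Etv4 or Etv5. A match is a run of letters and was not measured as a bound site.

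By RefSeq, Fgf4 spans chr7:144861386-144865245 (plus strand), Fgfr1 chr8:25518759-25575718 (plus), Fgfr2 chr7:130162451-130266808 (minus) and Fgfr3 chr5:33721724-33737068 (plus). Dusp4 spans chr8:34807610-34819894 (plus) and Dusp6 chr10:99263231-99267489 (plus). Spry2 lies at chr14:105891947-105896819 (minus), Spry4 on chromosome 18, Etv4 at chr11:101769747-101785310 (minus) and Etv5 at chr16:22381313-22439570 (minus). An antisense gene, Gm16159, overlaps Fgfr1, another, G630022F23Rik, overlaps Fgfr3, and Gm27369 and Gm27804 lie opposite Spry4; Smart-seq2 does not mark strand, so reads in those stretches cannot be told apart.

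**Figure D1:**
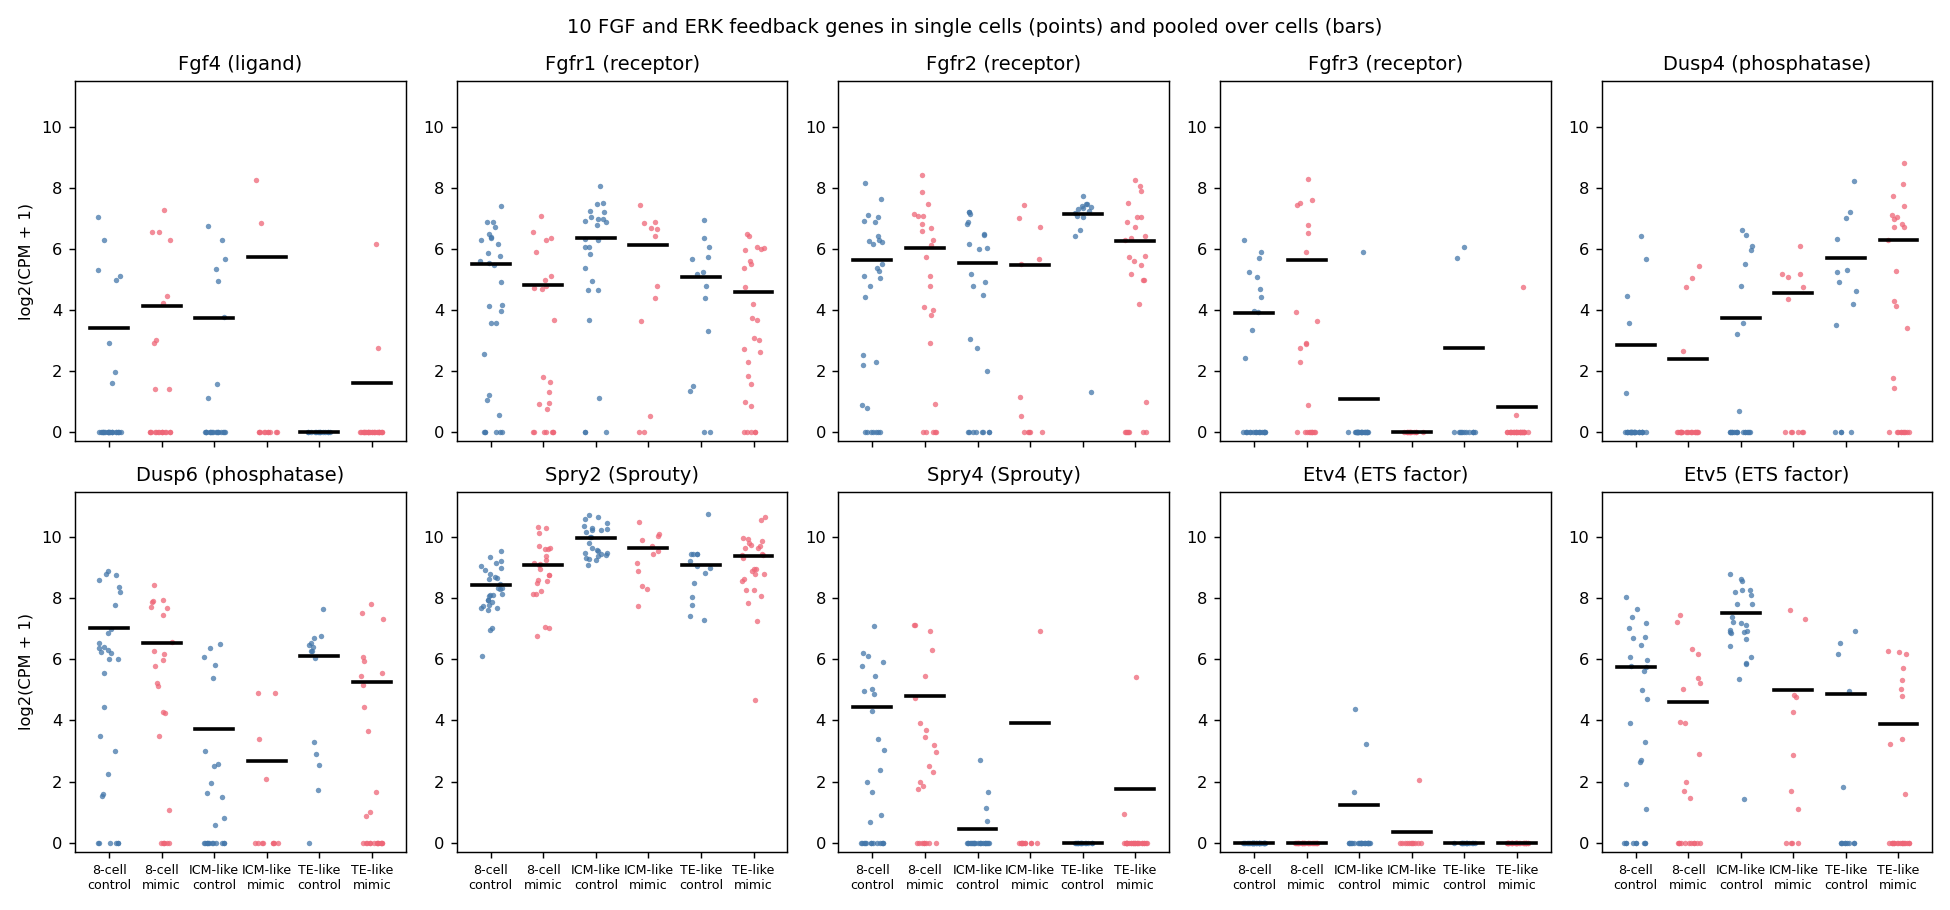
Level of each of the 10 genes in single cells (points; y axis log2(CPM + 1)) and pooled over the cells of a group (black bars), for the 2 groups of the 8-cell stage and the 4 classes of the 32-cell stage (blue, control; red, mimic). Spry2 had counts in every cell, Etv4 in 4 cells, and Etv5 in all 25 ICM-like control cells.

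Per length of transcript, Spry2 was the most abundant of the 10 in every group and class, at 426 length-scaled counts per 1000000 (TPM-like) in 8-cell control cells and 998 in 32-cell control cells. Dusp6 followed in 8-cell control cells (122 TPM-like) and Etv5 in 32-cell control cells (75.9 TPM-like). In 32-cell mimic cells the second place was held by Dusp4 (56.6 TPM-like), and Etv5 stood seventh (11.7 TPM-like). Comparisons below are within a gene, in CPM, except where the receptors are compared per length. The ranges of single cells overlapped between the groups for every gene in each of the 8 comparisons made. Most of these genes had cells without a count in both groups, which makes such an overlap certain, and its share over all genes is not given here. A difference below is one of pooled level or of the share of cells with a count.

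Fgf4, the ligand, was found in a minority of cells at each stage. At the 8-cell stage, control cells ranged from 0 to 131 CPM with a median of 0, and 8 of 30 had a count. Mimic cells ranged from 0 to 154.3 CPM, also with a median of 0, and 10 of 24 had a count. Their pooled levels were 9.66 and 16.5 CPM.

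At the 32-cell stage Fgf4 lay on the ICM side of the lineage split. In control embryos 8 of 25 ICM-like cells had a count, at 1.18 to 106.7 CPM, against 0 of 14 TE-like cells, which allows a share of up to 21.4%. The pooled ICM-like level of 12.5 CPM was at least 101.2-fold higher than 3 counts pooled over the TE-like cells would give. In mimic embryos 2 of 12 ICM-like cells had a count, at 113.2 and 304 CPM, and 2 of 27 TE-like cells, at 5.74 and 70.2 CPM. The cell at 304 CPM held 84.97% of the counts of its class, and the class level fell from 52.1 to 9.16 CPM without it. The shares with a count were 16.7% (95% interval 2.09 to 48.4) in mimic and 32.0% (14.95 to 53.5) in control. These intervals take cells as independent draws and leave out differences between embryos, so they do not compare the arms. The higher pooled level of the mimic class rested on 1 cell.

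Fgfr1, the receptor of the early ICM lineages, was read in most cells of every group. The 8-cell control cells ranged from 0 to 168.5 CPM (median 22.9) and the mimic cells from 0 to 134 CPM (median 2.34). ICM-like control cells ranged from 0 to 264 CPM (median 77.4) and ICM-like mimic cells from 0 to 173.6 CPM (median 55.5). In TE-like cells the highest values were 124 CPM in control (median 30.6) and 89.8 CPM in mimic (median 7.46). The ICM-like cells thus held the highest values, and mimic cells had the lower median in each setting.

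Fgfr2, the receptor associated with trophectoderm and primitive endoderm, had the opposite lineage pattern. All 14 TE-like control cells had a count, from 1.46 to 214 CPM with a median of 152.8, and 11 of them exceeded 100 CPM. No ICM-like control cell reached the TE-like median, and 17 of 25 had a count (median 26.6, highest 148.5 CPM). TE-like mimic cells were more scattered, from 0 to 302 CPM with a median of 47.2, and 7 of 27 had no count. Below the TE-like control median lay 23 of those 27 cells, while 3 of them lay above every control cell. ICM-like mimic cells ranged from 0 to 173 CPM, with a median of 0.827. At the 8-cell stage the highest cells stood at 285 CPM in control (median 32.7) and 345 CPM in mimic (median 43.0).

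Fgfr3, another receptor gene of the same family, was mostly a gene of the 8-cell stage. It had a count in 11 of 30 control cells, up to 77.9 CPM, and in 14 of 24 mimic cells, up to 313 CPM. There 6 mimic cells lay above the highest control cell. At the 32-cell stage a count was found in 3 of 39 control cells (51.6, 58.7 and 65.7 CPM) and in 2 of 39 mimic cells (0.463 and 26.1 CPM). Fgfr4, the remaining receptor gene of the family and no member of the 10, had a count in 9 of 39 control and 11 of 39 mimic cells of that stage (3.76 and 5.07 pooled CPM).

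Cells with both Fgfr1 and Fgfr2 made up 14 of 25 ICM-like control cells, 12 of 14 TE-like control cells, 5 of 12 ICM-like mimic cells and 16 of 27 TE-like mimic cells. Divided by the length of the longest transcript (4429 bases for Fgfr2 and 5041 for Fgfr1), Fgfr2 was above Fgfr1 in 13 of 14 TE-like control cells and in 15 of 27 TE-like mimic cells. In ICM-like cells it was above Fgfr1 per length in 10 of 25 control and 5 of 12 mimic cells. Neither of this pair was read in 0 of 39 control and 1 of 39 mimic cells of that stage.

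**Figure D2:**
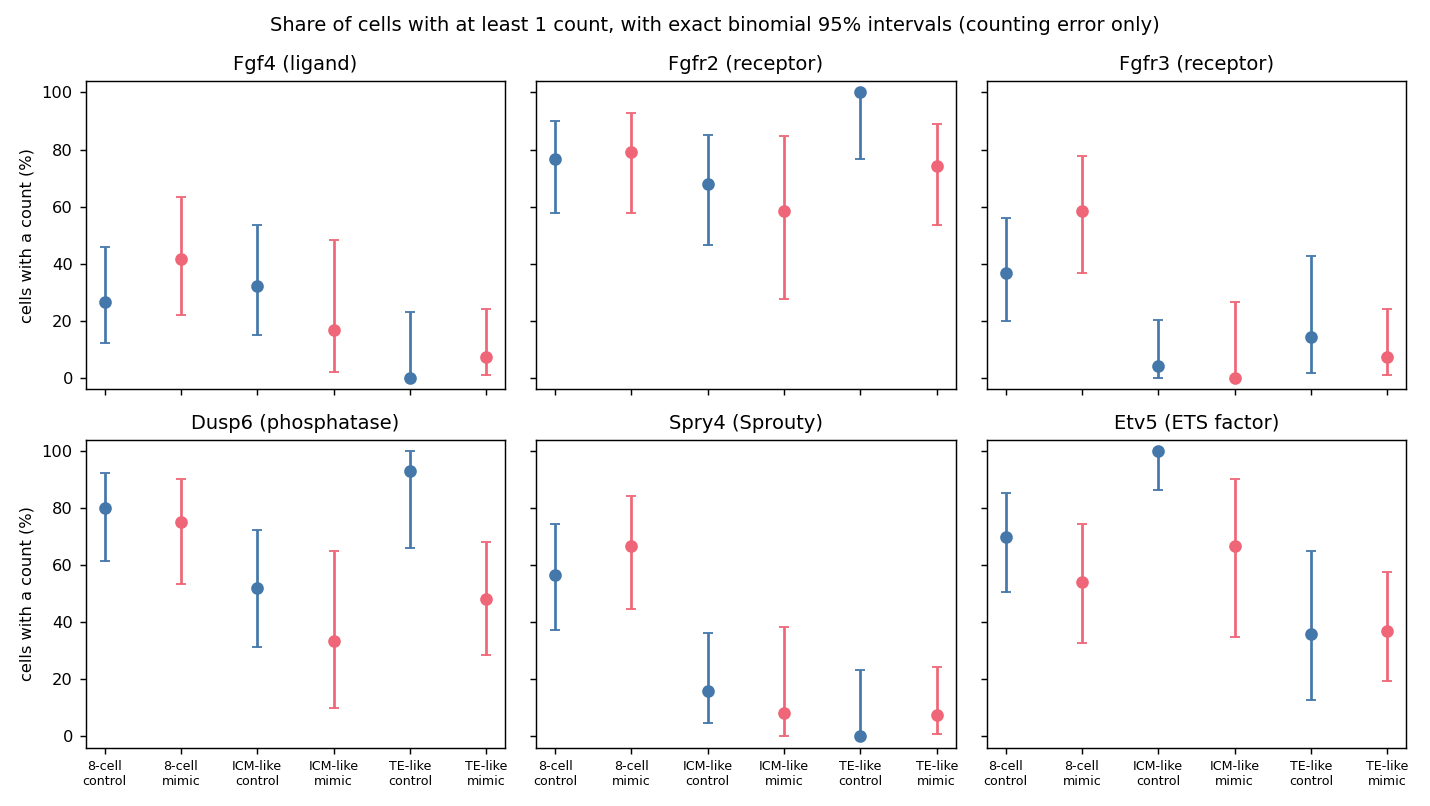
Share of cells with at least 1 count (y axis, percent) of 6 of the genes in the 2 groups of the 8-cell stage and the 4 classes of the 32-cell stage, with exact binomial 95% intervals. The intervals take cells as independent draws and leave out differences between embryos. Dusp6 was read in 13 of 14 TE-like control cells and 13 of 27 TE-like mimic cells, Etv5 in 25 of 25 ICM-like control cells and 8 of 12 ICM-like mimic cells.

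Dusp4 encodes a nuclear phosphatase of ERK. A count was found in 5 of 30 control and 4 of 24 mimic cells at the 8-cell stage, up to 85.6 and 42.7 CPM. ICM-like cells reached 96.4 CPM in control (9 of 25 with a count) and 67.5 CPM in mimic (6 of 12). TE-like cells reached 300 CPM in control (10 of 14 with a count, median 26.3) and 452 CPM in mimic (17 of 27, median 16.6). The gene was thus rare early and highest in TE-like cells of both arms.

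Dusp6, the cytoplasmic ERK phosphatase commonly used as a readout of FGF signalling, had its highest pooled level and its highest single cells at the 8-cell stage, where control cells ranged from 0 to 474 CPM (median 68.05) and mimic cells from 0 to 348 CPM (median 45.5). At the 32-cell stage it was read in 13 of 14 TE-like control cells (median 76.6, highest 198 CPM). ICM-like control cells had a median of 0.477 CPM and a highest cell of 90.1 CPM. The TE-like mimic cells ranged from 0 to 222 CPM with a median of 0, and the ICM-like mimic cells from 0 to 28.9 CPM. TE-like cells without a count thus numbered 1 of 14 in control and 14 of 27 in mimic.

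Spry2, an inhibitor of receptor signalling, was the only one of the 10 found in every cell. Median levels were 298 CPM in 8-cell control and 521 CPM in 8-cell mimic cells. They were 890 and 729 CPM in ICM-like control and mimic cells, and 519 and 642 CPM in TE-like control and mimic cells. The lowest single value, 24.6 CPM, belonged to a TE-like mimic cell and the highest, 1735 CPM, to a TE-like control cell. All 25 ICM-like control cells lay above the TE-like control median.

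Spry4, the other Sprouty gene, had a count in 17 of 30 control cells (up to 135 CPM, median 1.53) and 16 of 24 mimic cells (up to 140 CPM, median 4.34) at the 8-cell stage. By the 32-cell stage 4 of 39 control cells had a count, none above 5.51 CPM, and 3 of 39 mimic cells had one, at 0.931, 41.7 and 122 CPM. The pair of Sprouty genes therefore had unlike courses, with Spry4 in few cells of the later stage and Spry2 in all of them.

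Etv4 was at 0 counts in all 54 cells of the 8-cell stage. It was found in 3 ICM-like control cells (2.14, 8.28 and 19.7 CPM) and 1 ICM-like mimic cell (3.15 CPM), and in no TE-like cell.

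Etv5 carried the clearest pattern of the set. In 8-cell control cells it ranged from 0 to 266 CPM with a median of 19.7, and 21 of 30 cells had a count. In 8-cell mimic cells it ranged from 0 to 174.4 CPM with a median of 1.98, and 13 of 24 had a count. ICM-like control cells ranged from 1.71 to 439 CPM, with a median of 138 and 19 of 25 cells above 100 CPM.

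ICM-like mimic cells ranged from 0 to 198 CPM for Etv5, with a median of 4.31, and 2 of 12 exceeded 100 CPM. TE-like cells had a median of 0 in both arms, with highest cells of 122 CPM in control and 76.1 CPM in mimic. The ICM-like control cells thus stood apart from all other classes by their median, and 10 of 12 ICM-like mimic cells lay below it.

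Changes between groups were taken as the difference of log2(pooled CPM + 1), and a gene was counted as past 2-fold when this was at least 1 in size and the mean of both levels was at least 5 CPM. From the 8-cell to the 32-cell stage in control embryos, 9 of the 10 genes met that level, of which 3 were higher and 3 lower at the 32-cell stage. Over all 9515 genes at that level the shares were 29.9% higher and 20.8% lower, so 3 of 9 each way is close to the background. The median change of these 9 was 0.43 on the log2 scale, beside 0.20 for all genes at that level.

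Higher at the 32-cell stage in control were Dusp4 (6.26 to 28.9 CPM, log2 change 2.04), Spry2 (342 to 812 CPM, 1.25) and Etv5 (53.0 to 117.7 CPM, 1.14). Lower were Spry4 (20.8 to 0.211 CPM, -4.17), Fgfr3 (13.9 to 3.13 CPM, -1.85) and Dusp6 (131 to 36.3 CPM, -1.82). The 2 phosphatase genes thus moved in opposite directions, and so did the 2 Sprouty genes. Etv5 was at 0.91, within 2-fold, without the first 32-cell control run. Fgfr2 (0.83), Fgfr1 (0.43) and Fgf4 (-0.39) were not past 2-fold. The Fgfr3 value rests on the first run of 28 control cells of the 8-cell stage: the 2 remaining cells had no count, and without that run the log2 change was 2.05. Against those 2 cells alone Fgfr2 was at 2.10, Fgfr1 at 1.05 and Fgf4 at 3.02. Dusp4 was then at 4.90, Etv5 at 2.21, Spry4 at -1.37 and Dusp6 at -3.37.

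In mimic embryos 9 genes met the level between the stages, 1 higher and 3 lower, beside 30.2% higher and 18.8% lower over 9652 genes. Dusp4 was higher (4.21 to 61.9 CPM, log2 change 3.60). Fgfr3 (48.5 to 0.545 CPM, -5.00), Spry4 (27.1 to 5.71 CPM, -2.07) and Dusp6 (91.1 to 28.4 CPM, -1.65) were lower. Spry2 (0.38) and Etv5 (-0.30), both higher with the stage in control, were not past 2-fold here. Fgf4 (-0.025) had a count in 10 of 24 and then 4 of 39 cells, and its value was -1.41 without the highest cell of each group and -1.48 without the third 32-cell mimic run. Whether the courses differed between the arms was not tested. Spry2 and Dusp6 were lower in the first run of 18 mimic cells at the 32-cell stage, at 395 and 3.11 CPM, against 857 and 45.5 CPM in the second run and 956 and 42.3 CPM in the third.

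At the 8-cell stage, before the lineages separate, the mimic could be compared in 24 against 30 cells, and 1 of 9 genes was higher and 1 lower past 2-fold. Over 8988 genes 8.92% were higher and 8.66% lower in mimic. Fgfr3 was higher in mimic embryos, at 48.5 against 13.9 CPM (log2 change 1.73; ratio 3.49, 95% counting interval 3.15 to 3.86). Etv5 was lower, at 23.2 against 53.0 CPM (log2 change -1.16; ratio 0.437, 95% counting interval 0.400 to 0.476). Intervals here cover counting error alone: reads here carry no molecular identifiers and are not independent molecules, and neither cells nor embryos enter the interval.

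Fgfr3 was higher both in cells with Xist at or above the Y-linked genes (48.0 against 7.85 CPM, in 10 of 14 against 6 of 23 cells) and in cells with Y-linked counts above Xist (67.6 against 28.3 CPM, in 4 of 8 against 5 of 7 cells). It stayed past 2-fold in all 13 alternatives tried. Etv5 stood at 27.6 against 34.3 CPM in the first kind of cell and at 20.95 against 97.6 CPM in the second, and it was past 2-fold in 9 of 13 alternatives. Between the kinds of control cell, Etv5 differed by more (34.3 and 97.6 CPM) than between the arms as a whole. Other genes at this stage lay within 2-fold: Fgf4 0.72, Spry2 0.68, Fgfr2 0.40, Spry4 0.36, Dusp4 -0.48, Dusp6 -0.52 and Fgfr1 -0.70 on the log2 scale. Against the 2 control cells outside the first run, Fgfr3 was at 5.63, Fgf4 at 4.13, Spry4 at 3.17, Dusp4 at 2.38, Fgfr2 at 1.67, Dusp6 at -2.07 and Etv5 at -0.091. For Spry2, 19 of 24 mimic cells lay above the control median. By kind of cell, some of these changes were past 2-fold in opposite directions. Fgf4 stood at 2.48 against 12.3 CPM (-1.94) in cells with Xist at or above the Y-linked genes and at 56.6 against 3.31 CPM (3.74) in the others. Spry4 stood at 34.1 against 11.9 CPM (1.44) and 19.6 against 42.01 CPM (-1.06). Fgfr1 was at a like level in the first kind (36.1 against 34.6 CPM, 0.061) and lower in the second (11.4 against 68.1 CPM, -2.48). The second kind held 8 mimic and 7 control cells, and 2 mimic cells had counts of neither.

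At the 32-cell stage, over all 78 cells, 7 genes met the level, with 2 higher and 1 lower in mimic, beside 9.37% higher and 6.29% lower over 9464 genes. Mimic cells held 18.6 CPM of Etv5, against 117.7 CPM in control cells (log2 change -2.60), and 37 of 39 mimic cells lay below the control median of 101.5 CPM. Dusp4 was higher in mimic (61.9 against 28.9 CPM, 1.07), and so was Fgf4 (16.2 against 7.14 CPM, 1.08). Dusp4 was past 2-fold in 9 of 14 alternatives, and at 0.69 without the second mimic run. The Fgf4 value turned to -0.40 without the highest cell of each group. Because TE-like cells made up 27 of 39 mimic cells and 14 of 39 control cells, each gene was next compared within the classes.

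**Figure D3:**
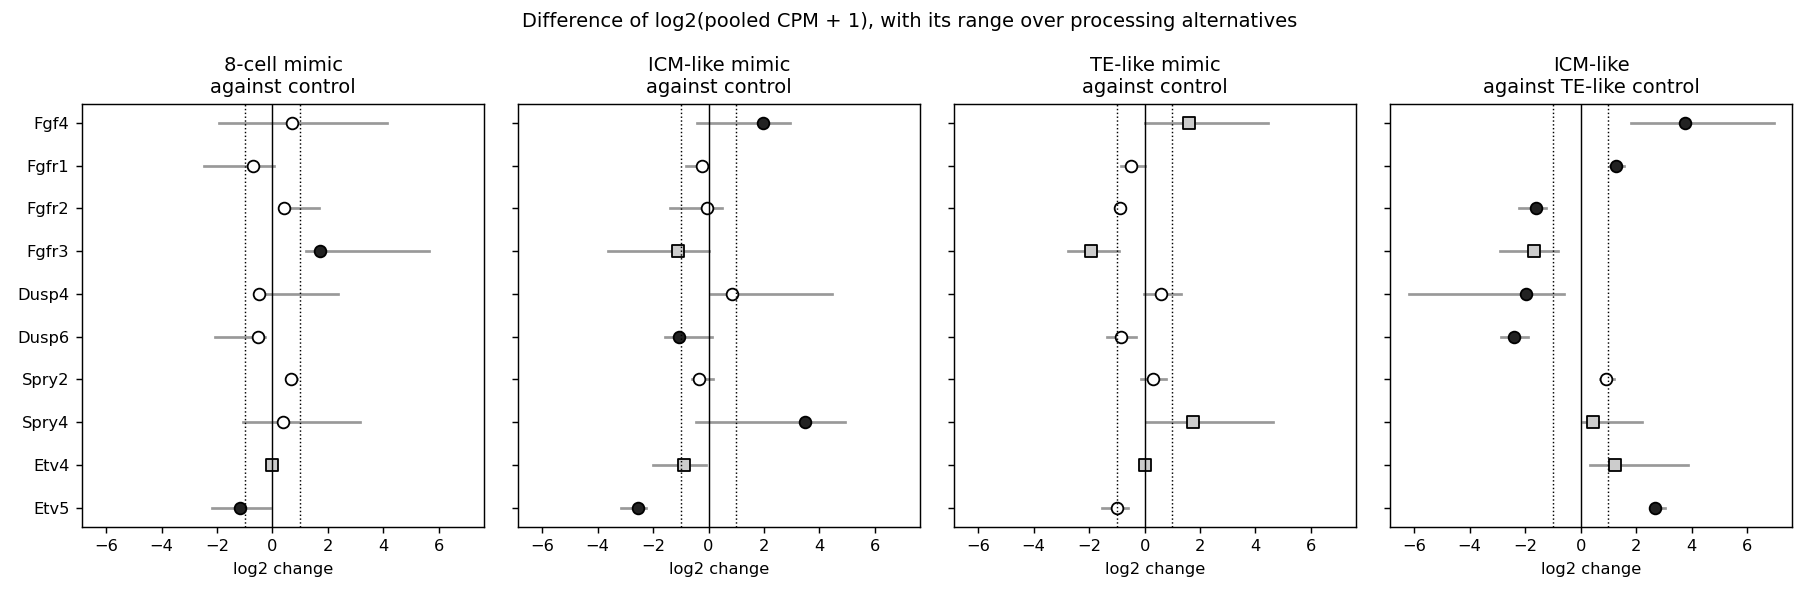
Log2 change of each gene (x axis; points) in 4 comparisons, with its range over the processing alternatives (grey lines); black points are past 2-fold, white points are not, and grey squares mark genes below a mean of 5 CPM. Etv5 in the ICM-like class stayed between -3.17 and -2.26 in all 17 alternatives, while the lines of Fgf4 and Spry4 in that class cross 0.

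Within the ICM-like class 8 genes met the level, with 2 higher and 2 lower in mimic, beside 13.2% higher and 11.2% lower over 9423 genes. Etv5 was 5.93-fold lower in mimic, at 31.2 against 185 CPM (log2 change -2.53; ratio 0.169, 95% counting interval 0.153 to 0.185). It was past 2-fold in all 17 alternatives, from -3.17 to -2.26. By run it was 198 and 163.4 CPM in control, and 28.8, 44.4 and 6.38 CPM in mimic, the last from 1 cell. Every control run was thus above every mimic run, but neither runs nor alternatives can separate the treatment from sex at this stage. In 8-cell control cells Etv5 stood at 97.6 CPM where Y-linked counts were above Xist and at 34.3 CPM in the others.

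Dusp6 was also lower in ICM-like mimic cells (5.31 against 12.1 CPM, log2 change -1.05), but its value was 0.14 when cells were placed by marker score. Fgf4 (log2 change 1.98) and Spry4 (3.47) were higher only through single cells. Without the highest cell of each class they stood at -0.056 and -0.25. Dusp4 (0.84), Fgfr2 (-0.070), Fgfr1 (-0.24) and Spry2 (-0.33) lay within 2-fold. Dusp4 was uneven between the control runs (19.8 CPM over 17 cells and 0.080 CPM over 8), and its value was 4.45 without the first of them and 0.14 without the second mimic run. Fgfr2 was uneven between the mimic runs (21.7 CPM over 7 cells, 90.1 CPM over 4 and 0.456 CPM in 1), and its value was 0.49 without the first and -1.38 without the second.

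Within the TE-like class 6 genes met the level, and 0 were past 2-fold in either direction, beside 14.7% higher and 8.96% lower in mimic over 9321 genes. The values nearest the limit were Etv5 (13.6 against 28.02 CPM, log2 change -0.99), Fgfr2 (75.2 against 141.1 CPM, -0.90) and Dusp6 (37.6 against 68.7 CPM, -0.85). Dusp4 (0.58), Spry2 (0.31) and Fgfr1 (-0.48) lay nearer 0, and the direction of each turned under a setting. Dusp4 was at -0.026 without the first control run and 1.301 without the second, Spry2 at -0.15 and 0.79 in the same order, and Fgfr1 at 0.0057 in clusters made without X and Y genes. No test showed whether Etv5 changed more in the ICM-like than in the TE-like class.

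Fgfr2 was lower in each TE-like mimic run (86.1, 51.9 and 85.1 CPM) than in either control run (127 and 160 CPM). For Dusp6 the TE-like runs of mimic cells were uneven: 1.88 CPM over 11 cells, 63.6 CPM over 8 cells and 48.6 CPM over 8 cells, against 68.9 and 68.6 CPM in the control runs of 7 cells each. The log2 change of Dusp6 was -0.30 without the first mimic run and -1.37 without the second, and it was past 2-fold in 3 of 17 alternatives. That of Etv5 was -1.55 without the second mimic run and -0.60 by the mean of per-cell CPM, and it was past 2-fold in 5 of 17 alternatives.

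**Figure D4:**
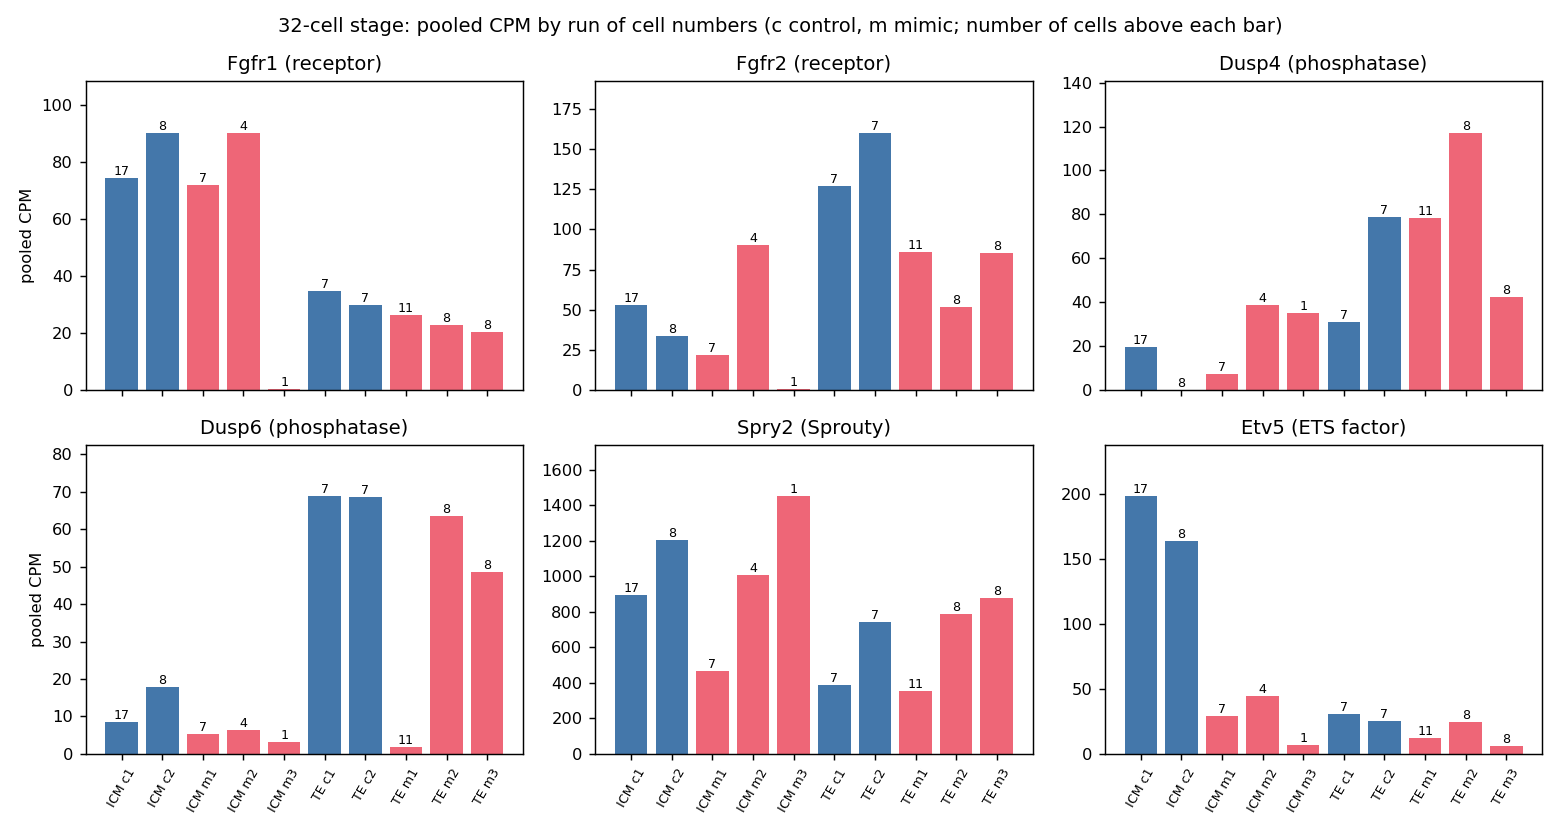
Pooled CPM (y axis) of 6 genes at the 32-cell stage by run of cell numbers within the ICM-like and TE-like classes (blue, control runs c1 and c2; red, mimic runs m1 to m3; the number above a bar is its cells). Etv5 was at 163.4 CPM or more in both ICM-like control runs and at 44.4 CPM or less in all other bars, and Dusp6 was at 1.88 CPM in the first TE-like mimic run.

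The lineages were then compared within each arm, to see how the 10 genes divide between ICM and TE. In control embryos 7 genes met the level, with 3 higher and 3 lower in ICM-like cells, beside 14.5% higher and 11.4% lower over 9208 genes. Higher were Fgf4 (log2 change 3.75), Etv5 (185 against 28.02 CPM, 2.68) and Fgfr1 (80.7 against 32.8 CPM, 1.27). Lower were Dusp6 (12.1 against 68.7 CPM, -2.41), Dusp4 (12.2 against 51.3 CPM, -1.98) and Fgfr2 (45.5 against 141.1 CPM, -1.61). The ERK phosphatase genes therefore lay with Fgfr2 on the TE-like side, and Etv5 with Fgf4 and Fgfr1 on the ICM-like side. Spry2 (1015 against 541 CPM, 0.91) was just under 2-fold. For Dusp4 the value was -6.21 without the first control run and -0.62 without the second.

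In mimic embryos 8 genes met the level, with 4 higher and 2 lower in ICM-like cells, beside 10.3% higher and 11.0% lower over 9553 genes. Fgf4 (4.11), Spry4 (2.16), Fgfr1 (68.3 against 23.2 CPM, 1.52) and Etv5 (31.2 against 13.6 CPM, 1.14) were higher. Dusp6 (5.31 against 37.6 CPM, -2.61) and Dusp4 (22.6 against 77.5 CPM, -1.73) were lower. In the first mimic run the pooled Dusp6 level went the other way, but few cells had a count. It was 5.23 CPM from 1 of 7 ICM-like cells and 1.88 CPM from 3 of 11 TE-like cells. The Spry4 value came from 1 cell, and without the highest cell of each class it was -0.040. Without those cells Etv5 was at 0.72, within 2-fold, and it was past 2-fold in 12 of 15 alternatives. Fgfr1 was at 0.45 in clusters made without X and Y genes. Fgf4 was at 1.27 without the third mimic run, and in the first mimic run it had 0 counts in ICM-like cells and 6.18 CPM in TE-like cells. Fgfr2 (43.2 against 75.2 CPM, -0.78) was not past 2-fold, but its value was -2.27 without the second mimic run and -0.12 without the first. Etv5 had fewer units of difference than in control, 1.14 against 2.68, although that gap itself was not tested. Within an arm, both classes came from the same group of embryos, but how each embryo was shared between the classes is unknown.

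Ranks of single cells described part of the same division. Over 39 control cells of the 32-cell stage, Spearman's rho between Etv5 and Dusp6 was -0.53, between Fgfr1 and Fgfr2 -0.48, between Fgfr2 and Dusp6 0.48, and between Etv5 and Spry2 0.57. These pairs were picked as the largest in size in control, so a smaller size elsewhere is built into the choice. Over 39 mimic cells they were at -0.23, -0.20, -0.078 and 0.22, while Dusp4 and Spry2 were at -0.046 in control and 0.21 in mimic cells. Other pairs on the same side were weaker in control cells, at 0.22 for Dusp4 and Fgfr2, 0.18 for Dusp4 and Dusp6, and 0.21 for Fgfr1 and Etv5. Cells of a pair share their library and depth. Against lineage markers, Etv5 gave 0.33 with Nanog and 0.18 with Gata6 in control cells, and 0.31 and 0.33 in mimic cells. Spry2 gave 0.22 with Nanog and 0.47 with Gata6 in control cells, and 0.37 and 0.25 in mimic cells.

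The genes ranked most like each member over all 78 cells, among 7103 genes with a count in at least 39 of those cells, were these. For Etv5 they were Tdgf1 (rho 0.66), Mgarp (0.65) and Glrx (0.65), of which Tdgf1 is an ICM marker. For Spry2 they were Pttg1 (0.73), Eif2s2 (0.63) and Dppa2 (0.61). Fgfr2 was ranked most like Ndrg1 (0.53), Pdgfa (0.50) and Cldn6 (0.49), and Dusp6 most like Prxl2b (0.54), Actr2 (0.50) and Arpc5 (0.50). Fgfr1 (Nde1, Gm48170, Golga7) and Dusp4 (Alppl2, Timd2, Pcyt2) had no rho above 0.49. These ranks pool both arms and both classes, so a difference between them enters each rho. Values within an arm were not computed for these genes. In these sparse counts a rho of this size is a description only.

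The wider pathway was read in a list of 98 further genes, from ligands to nuclear targets. Between the stages in control, 56 met the level, 12 higher and 20 lower, with a median log2 change of -0.12 beside 0.20 for all genes. Over all genes 29.9% were higher and 20.8% lower. In mimic 54 met it, 9 higher and 20 lower, with a median of -0.26 beside 0.24, and with 30.2% higher and 18.8% lower over all genes. Sdc4, a heparan sulphate proteoglycan that serves FGF receptors as a co-receptor, was higher at the 32-cell stage in both arms (213 to 4150 CPM in control, 321 to 4459 CPM in mimic). Other ligand genes differed in course. Fgf10 was higher in control (3.05 to 9.70 CPM, in 1 of 30 and 12 of 39 cells) and low in mimic (0 counts to 2.40 CPM, in 1 of 39 cells). Fgf1 went from 44.3 to 0.105 CPM in control and from 32.6 CPM to 0 counts in mimic, and Fgf3 from 32.0 CPM to 0 counts and from 35.3 to 1.11 CPM.

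Among further genes with the largest stage changes in control were Cblb, a ubiquitin ligase for receptors (1 count to 17.4 CPM), Ets2 (1 count to 15.9 CPM, in 5 of 39 cells) and the glypican gene Gpc4 (57.5 to 4.41 CPM). In mimic they were Dusp10 (4.95 to 56.9 CPM), Jun (7.60 to 82.3 CPM) and the ERK pathway inhibitor Spred1 (103.2 to 7.91 CPM). Dusp10, a phosphatase of stress-activated kinases, stood at 61.1 CPM in control cells of the 8-cell stage, so the mimic value there was the low one.

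At the 8-cell stage 56 of the 98 met the level, with 5 higher and 6 lower in mimic and a median log2 change of -0.093 beside 0.018. These shares lie near those of all genes, 8.92% and 8.66%, so the genes named here are examples by size of change. Higher were Id1 (0 counts to 12.5 CPM, in 5 of 24 cells), Spred2 (4.11 to 16.8 CPM) and the RAF kinase gene Braf (40.0 to 120 CPM). Lower were Dusp10 (61.1 to 4.95 CPM, in 21 of 30 control and 6 of 24 mimic cells), Klf4 (42.2 to 10.6 CPM) and Myc (124 to 38.8 CPM). Myc, like Etv5, is a nuclear gene often induced by ERK.

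At the 32-cell stage 52 met the level, with 5 higher and 10 lower in mimic, beside 9.37% and 6.29% over all genes, and a median log2 change of 0.069 beside 0.030. Dusp1 (18.7 to 143.2 CPM), Jun (25.7 to 82.3 CPM) and Ier2 (17.1 to 42.7 CPM) were higher. Spry1, another Sprouty gene (11.0 to 1.146 CPM), Cblb (17.4 to 2.97 CPM) and Fgf10 (9.70 to 2.40 CPM) were lower.

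Dusp1 was higher in both classes, in 12 of 12 ICM-like mimic cells against 10 of 25 control cells (62.4 against 11.4 CPM) and in 23 of 27 against 8 of 14 TE-like cells (175 against 28.5 CPM). Within the ICM-like class 49 of the list met the level, 8 higher and 9 lower, beside 13.2% and 11.2% over all genes, and with a median log2 change of 0.082 beside 0.033. Of its 10 nuclear targets 2 were higher and 6 lower (median -1.02). Other roles did not share this: 2 of 8 receptors and co-receptors were higher and 0 lower (median 0.48). Of 8 kinases 1 was higher and 0 lower (0.41), and of 10 inhibitors 2 were higher and 1 lower (0.077). Of the 12 nuclear targets read in TE-like cells 2 were higher and 3 lower (median 0.44), beside 14.7% and 8.96% over all genes there. In ICM-like cells Jun was higher (14.4 to 83.3 CPM) and Fgfrl1 too, through 1 cell (2.18 to 14.8 CPM). Spred1 (13.1 CPM to 0 counts), Fgf10 (12.1 CPM to 0 counts) and Ets2 (12.6 to 2.65 CPM, 1 cell in each arm) were lower.

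In the TE-like class 52 met the level, 8 higher and 10 lower in mimic, beside 14.7% and 8.96% over all genes, with a median log2 change of 0.11 beside 0.077. Beyond Dusp1, Sdc1 (1.44 to 20.7 CPM) and the phosphatase gene Ptpn11 (20.5 to 51.2 CPM) were higher. Spry1 (19.1 to 1.60 CPM), Cblb (31.5 to 4.14 CPM) and the heparan sulphate enzyme gene Ndst1 (28.3 to 4.69 CPM) were lower.

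Between the lineages in control, 52 met the level, 7 higher and 13 lower in ICM-like cells, beside 14.5% and 11.4% over all genes, with a median log2 change of -0.14 beside 0.082. Of the 12 inhibitor genes read there, the role with the most genes past 2-fold, 2 were higher and 7 lower. Among the latter were Dusp14 (61.3 against 319 CPM), Cblb (6.82 against 31.5 CPM) and Spry1 (4.95 against 19.1 CPM), on the same side as Dusp4 and Dusp6. Id3 (80.6 against 10.4 CPM), Sdc1 (15.5 against 1.44 CPM) and Etv6 (21.7 against 4.44 CPM) were higher in ICM-like cells.

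Between the lineages in mimic, 48 met the level, 6 higher and 6 lower, near the 10.3% and 11.0% over all genes, with a median log2 change of -0.0073 beside 0.025. Rps6ka3 (30.7 against 6.65 CPM), Sos2 (24.6 against 5.27 CPM) and, through 1 cell, Fgfrl1 (14.8 CPM against 0 counts) were higher in ICM-like cells. Elk1 (0 counts against 17.4 CPM), Spred1 (0 counts against 11.0 CPM) and Mycn (6.50 against 28.02 CPM) were lower.

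Set beside the printed seed matches, the 3 genes with a match differed in course. Fgfr2, with the 8mer, stood at log2 changes of 0.40 at the 8-cell stage, -0.070 in the ICM-like class and -0.90 in the TE-like class. Dusp6, with a pair of 7mers, stood at -0.52, -1.05 (0.14 by marker score) and -0.85. Spry2, with a 7mer-A1, stood at 0.68, -0.33 and 0.31.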

How the data were processed

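Smart-seq2 cells were labelled by stage and treatment. The deposited expected counts (not normalised) were made by the authors with STAR (version 2.5.1b) and RSEM (version 1.3.0) on mm10; all were whole, which points to rounding before deposit. The study's filter (at least 3000 genes, under 10% mitochondrial counts) removed 0 cells. Counts of 13 mitochondrial genes were left out. Counts were summed per group or class and divided by their total (pooled CPM), with exact Poisson intervals for levels and ratios and exact binomial (Clopper-Pearson) intervals for shares of cells, all at 95%. Limits for a count of 0 used 3 counts pooled over the group, or 3 cells for a share.

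Log2 changes used a pseudocount of 1 CPM. Genes needed a mean of 5 CPM. The calculation was tested on simulated data. Clusters were made with Seurat (version 5.3.0) in R (version 4.3.3), from 2000 variable genes and 25 principal components, at the first resolution from 0.6 upward, in steps of 0.2, that split the 32-cell cells (0.8). Doublets were not called, since cells were picked singly. Length-scaled values used the longest transcript in GENCODE M21, which gave a length to 31411 of 32245 genes. The named pathway genes are, in each comparison, up to 3 in each direction with the largest change past 2-fold. Fgf10 between the stages and Fgfr4 were named outside this rule. The genes most like a member are the 3 with the highest rho. The 10 genes, the pathway list, the markers and these rules were chosen with earlier results of these data known. Alternatives covered scaling, pseudocount, filter, depth, runs, sex-linked counts and the placing of cells.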

Additional observations from a re-analysis of the deposited data

How the results depend on the processing

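The count of genes past 2-fold moved by over 1.5 times under some setting in 5 of the 8 comparisons, and by no more than that in the other 3. Between the stages in control it was 3 rather than 6 with a filter of 20 CPM. At the 8-cell stage it was 1 rather than 2 by the mean of per-cell CPM and with cells thinned to 500000 counts, 5 in cells with Y-linked counts above Xist, and 2 to 5 with a run left out. At the 32-cell stage it was 1 rather than 3 by the mean of per-cell CPM, with a pseudocount of 5 CPM and after thinning, 5 with no filter, and 1 to 3 with a run left out. In the ICM-like class it was 2 rather than 4 with a filter of 20 CPM, in clusters made without X and Y genes and without the highest cell of each group, and 2 to 4 with a run left out. In the TE-like class it was 1 rather than 0 by the mean of per-cell CPM, with a pseudocount of 0.1 CPM, by marker score and in clusters from all genes, 3 with no filter, and 1 to 2 with a run left out. The shares over all genes under each setting are not given here, so these counts cannot be read as changes particular to the 10 genes. Some settings held few cells, such as 8 mimic and 7 control cells with Y-linked counts above Xist.

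Among log2 changes of members at the level of 5 CPM, 6 of 31 past 2-fold and 15 of 32 within it changed direction under some setting. Those past 2-fold were the following. Fgfr3 between the stages in control was -1.96 to 2.05 with a run left out, the highest value without the first 8-cell control run. Fgf4 at the 32-cell stage was -0.38 to 1.62 (lowest without the third mimic run) and -0.40 without the highest cells. Fgf4 in ICM-like cells was -0.41 to 2.95 (lowest without the same run) and -0.056. Dusp6 in ICM-like cells was 0.14 by marker score. Spry4 in ICM-like cells was -0.45 to 4.40 with a run left out (lowest without the second mimic run), -0.45 in clusters without X and Y genes and -0.25 without the highest cells. Spry4 between the lineages in mimic was -2.15 to 4.07, -3.09 and -0.040 in the same order. The setting without the highest cells was added after seeing the data. The cause was not tested beyond the construction of these settings. All 80 shares of cells with a count stayed within their interval after thinning. Scaling by the median ratio of genes moved all changes of a comparison by at most 0.060. No paired analysis was possible because the labels give no number that marks a shared embryo, litter or day, and with 1 sample a group there was no test.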
